A study of Neogale vison with 6 samples.

Results

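Genes of the cellular response to low oxygen were followed in Mv1Lu cells, an epithelial line from mink lung, after cholesterol depletion (CD). They were chosen as 10 gene symbols of HIF subunits, oxygen sensors and targets, and every row of the count table with such a symbol was taken. Of the 10 symbols, 9 were found among the 24526 genes of the table, while EGLN1 was absent as a symbol. One of the 9, ADM, had no reads in any library, so that 8 genes could be tested. The data comprised 3 libraries of untreated cells (control) and 3 libraries of cells kept for 16 h with 50 μM lovastatin, a statin, and 50 μM mevalonate in medium with 10% lipoprotein-deficient serum (LPDS). Both groups are the same line, and CD changed drug, mevalonate and serum together, so that the values belong to the whole treatment. Nothing in the labels says that the 3 libraries of a group came from separate cultures, so p-values measure only the spread between these libraries, which may be technical.

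Hypoxia-inducible factors (HIFs) are dimers of an oxygen-labile alpha subunit, encoded by HIF1A or EPAS1, and a stable partner such as ARNT. In the presence of oxygen, prolyl hydroxylases of the EGLN family mark the alpha subunit, the VHL ubiquitin ligase binds the mark, and the subunit is degraded. When oxygen or another cofactor of the hydroxylases is short, the alpha subunit persists and switches on genes of glycolysis, pH control, blood vessel growth and matrix formation. HIF activity is therefore set mainly at the level of protein, and mRNA levels of HIF1A and EPAS1 do not report it. Only mRNA was measured here.

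The libraries held 13473820 to 18633764 reads on genes, and values are given as CPM, which are read counts brought to a common library size after TMM scaling. The quasi-likelihood test of edgeR was run over all 12148 genes with enough reads, and genes with an FDR (Benjamini-Hochberg) under 0.05 were called. Among the 8 tested hypoxia genes, 5 were higher in CD (NDRG1, ANKRD37, VEGFA, EGLN3 and HIF1A), 1 was lower (CA9) and 2 were not called (EPAS1 and P4HA1). Over all tested genes 47.7% were called, 24.8% higher and 22.9% lower. Of the 8 genes, 4 were called with a fold of 2 or more, as were 20.2% of all tested genes. For 5 of the 8 genes the libraries of both groups did not overlap, which was also true of 58.0% of all tested genes. The 8 genes had a median log2 fold change of 0.67, and all tested genes one of 0.057. In bulk RNA fewer cells of a type and less RNA per cell cannot be told apart. For single values, exact permutation over 3 and 3 libraries has a smallest two-sided p of 0.1. Below, log2FC is the fitted log2 fold change of CD over control, given ± its standard error (SE), and levels of a group are the mean ± SD of 3 libraries.

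**Figure D1:**
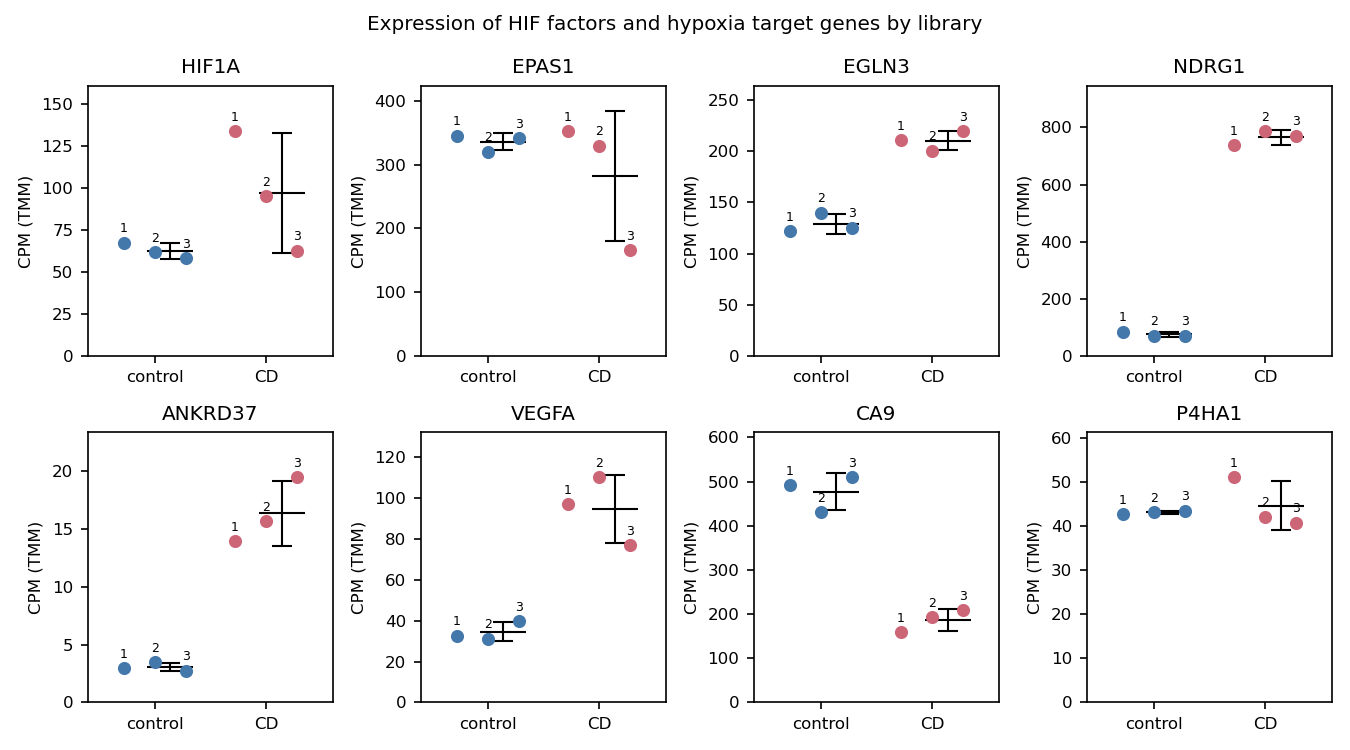
Expression of the 8 tested hypoxia genes in each library, in CPM after TMM scaling (vertical axis, from 0), with points numbered by replicate and the mean ± SD of 3 libraries beside them. NDRG1, ANKRD37, VEGFA and EGLN3 lay higher in all CD libraries and CA9 lower, while HIF1A and EPAS1 were spread over the CD libraries.

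The subunit genes were examined first. HIF1A (ENSNVIG00000006663), which encodes the HIF-1 alpha subunit, was at 67.4, 61.7 and 58.0 CPM in untreated cells (replicates 1 to 3), against 134, 94.9 and 62.5 CPM after CD (replicates 1 to 3). CD replicates 1 and 2 lay above every control library, while CD replicate 3 lay within the control range, so that the groups overlapped. The log2FC was 0.64 ± 0.23 (SE; FDR 0.0424, edgeR), or 1.56-fold. This call was close to the threshold and was not made in 8 of 14 alternative settings, with FDR values from 1.19e-07 to 0.143 over the 14. Without control replicate 1, 2 or 3 or CD replicate 2, HIF1A was not called, and on omission of CD replicate 1 its log2FC was 0.35 (FDR 0.121, edgeR). Without CD replicate 3 it was 0.84.

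EPAS1 (ENSNVIG00000017189), which encodes the HIF-2 alpha subunit, was at 345, 320.3 and 341 CPM in untreated cells, against 353, 329.8 and 166 CPM after CD. CD replicates 1 and 2 were near the control level and CD replicate 3 was far below it. The log2FC was -0.25 ± 0.23 (SE; FDR 0.411, edgeR), and the 95% interval of the change ran from 0.586-fold to 1.21-fold. EPAS1 was called in none of 14 alternative settings, where its FDR lay between 0.148 and 0.937. Without CD replicate 3, the log2FC was -0.012.

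HIF1A and EPAS1 were both low in CD replicate 3 beside the other CD libraries. The ratio of their read counts was taken within each library, where the scaling of libraries cancels. The ratio of HIF1A to EPAS1 reads was 0.195, 0.193 and 0.170 in untreated cells, against 0.379, 0.288 and 0.377 after CD (replicates 1 to 3 in order). Every CD library, the third included, lay above every control library. In CD replicates 1 and 2 HIF1A was above its control range, whereas in CD replicate 3 EPAS1 was below its control range. The log2 ratio was -2.43 ± 0.11 in untreated cells and -1.53 ± 0.23 after CD (SD, n = 3), a difference of 0.90 with a standard error of 0.15, or 1.86-fold (two-sided exact permutation p = 0.1, the lower limit here). When single libraries were omitted, the difference stayed between 0.83 and 1.03. The ratio compares counts and not molecules, as gene lengths were not used.

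**Figure D2:**
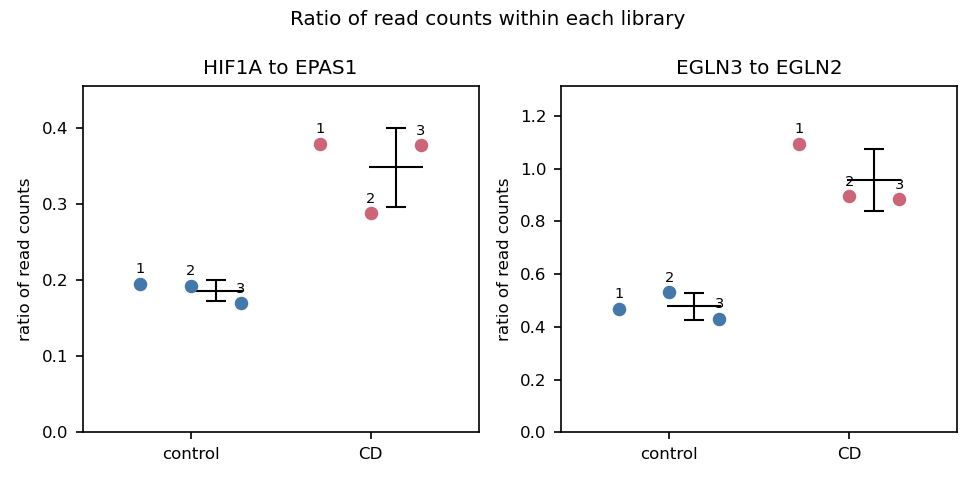
Ratio of read counts within each library (vertical axis, from 0) for HIF1A to EPAS1 and for EGLN3 to EGLN2, in control and CD, with points numbered by replicate and the mean ± SD of 3 libraries. In both panels the 3 CD libraries lay above the 3 control libraries.

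The prolyl hydroxylases were examined next. EGLN1, the main oxygen sensor of the family in most cells, has no row by symbol in the count table and is not analysed here. EGLN3 (ENSNVIG00000002975), a family member that is itself a known HIF target, was at 122, 140.0 and 125 CPM in untreated cells, against 211, 201 and 219.7 CPM after CD. All CD libraries were higher than all control libraries, and they lay close together. The log2FC was 0.71 ± 0.11 (SE; FDR 5.05e-04, edgeR), or 1.63-fold, and EGLN3 was called in all 14 alternative settings. EGLN2, the remaining family member, was at 271 ± 17.1 CPM in untreated cells and 222 ± 28.1 CPM after CD (SD, n = 3), with a log2FC of -0.29 that was not called (FDR 0.0790, edgeR), although its libraries did not overlap between the groups.

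The ratio of EGLN3 to EGLN2 reads, chosen after the values were seen because EGLN1 was absent, was 0.469, 0.532 and 0.432 in untreated cells, against 1.09, 0.895 and 0.884 after CD. The groups did not overlap, and the mean log2 ratio went from -1.07 to -0.069 (two-sided exact permutation p = 0.1, the lower limit here). EGLN3 thus had fewer reads than EGLN2 in every control library and a similar number in the CD libraries, with gene lengths again not used.

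The target genes among the 8 were examined last. NDRG1 (ENSNVIG00000006382), a stress-responsive protein with roles in lipid and vesicle traffic and in differentiation, had the largest log2FC of the 8 tested genes. It was at 85.5, 70.6 and 70.9 CPM in untreated cells, against 737, 788 and 770.3 CPM after CD. The CD libraries differed from each other by only 1.07 times, and only 3.26% of tested genes had a smaller ratio of the highest to the lowest CD library. The log2FC was 3.34 ± 0.13 (SE; FDR 1.37e-07, edgeR), or 10.1-fold with a 95% interval of 8.28 to 12.3. Only 96 of the 12148 tested genes had a higher fitted log2FC.

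ANKRD37 (ENSNVIG00000005829), a small ankyrin repeat protein known as a HIF-1 target, had few reads, 41, 48 and 50 in untreated cells, against 227, 255 and 270 after CD. On the CPM scale it rose from 3.05 ± 0.371 to 16.3 ± 2.82 (SD, n = 3), and its log2FC was 2.42 ± 0.21 (SE; FDR 1.20e-05, edgeR), or 5.35-fold. CD replicate 3 was the highest of all libraries for this gene. In the RefSeq annotation of the mink assembly ASM_NN_V1, which is not the assembly of the count table, UFSP2 is the neighbor of ANKRD37 on one side, and a further protein-coding gene overlaps ANKRD37 on the other. Strand use in the counting was not given in the sources used here, so the count of ANKRD37 is uncertain to the extent that genes overlap. UFSP2, named after its values were seen, had 104, 116 and 126 reads in untreated cells, against 131, 107 and 137 after CD (log2FC 0.10, FDR 0.701, edgeR).

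VEGFA (ENSNVIG00000009743), the growth factor that drives the sprouting of blood vessels, was at 32.6, 31.2 and 39.8 CPM in untreated cells, against 96.9, 110.1 and 76.8 CPM after CD. The lowest CD library, replicate 3, still lay well above the highest control library. The log2FC was 1.45 ± 0.16 (SE; FDR 6.54e-05, edgeR), or 2.74-fold, and when single libraries were omitted it was at least 1.3 and at most 1.57.

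CA9 (ENSNVIG00000016550), a membrane-bound carbonic anhydrase that helps to control pH and is among the most used markers of HIF-1 activity, went the other way. It was at 492, 431 and 509 CPM in untreated cells, against 159, 192 and 209 CPM after CD. No CD library came near the lowest control library. The log2FC was -1.35 ± 0.13 (SE; FDR 3.01e-05, edgeR), so that control cells had 2.56 times the level of CD cells. When single libraries were omitted, the log2FC stayed between -1.47 and -1.24. CA9 was called lower, and NDRG1, ANKRD37, VEGFA and EGLN3 were called higher, in all 14 alternative settings.

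P4HA1 (ENSNVIG00000009837), the catalytic subunit of the collagen prolyl hydroxylase, was at 42.6, 43.1 and 43.5 CPM in untreated cells, against 51.0, 42.1 and 40.8 CPM after CD. CD replicate 1 was above and CD replicates 2 and 3 were below the control libraries. The log2FC was 0.052 ± 0.13 (SE; FDR 0.765, edgeR), and the 95% interval ran from 0.849-fold to 1.27-fold. In the RefSeq annotation a pseudogene overlaps P4HA1, so its count is uncertain in the same way as that of ANKRD37. ADM (ENSNVIG00000010649), the precursor of the vasodilator peptide adrenomedullin, had 0 reads in all 6 libraries. A count of 0 allows up to 3 reads, which is 0.161 to 0.223 CPM without TMM scaling in these libraries (for counting error only), and no comparison is possible for this gene model.

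The spread of HIF1A and EPAS1 over the CD libraries was set beside that of all genes. The log2 ratio of the CPM in CD replicate 3 to the mean of CD replicates 1 and 2 was -1.04 for EPAS1 and -0.87 for HIF1A. Of all tested genes, 5.54% and 8.59% had a lower log2 ratio than EPAS1 and HIF1A, respectively, and the quartiles over all genes were -0.39 and 0.28. For VEGFA this log2 ratio was -0.43 and for P4HA1 -0.19, while for NDRG1, EGLN3, CA9 and ANKRD37 it was 0.015, 0.095, 0.25 and 0.39. Among the partners and coactivators of the HIFs, chosen after their values were seen, ARNT (-0.69), ARNT2 (-0.88), EP300 (-0.93) and CREBBP (-0.74) were also low in CD replicate 3. Other genes of oxygen sensing, followed below, went both ways in CD replicate 3. ELOC (0.81), ELOB (0.56) and RBX1 (0.36) were higher, and VHL (-0.39) and HIF1AN (-0.39) were lower. In this library 41.4% of all reads did not fall on genes, against 31.1% and 31.8% in CD replicates 1 and 2 and 29.3% to 47.2% in the control libraries. The part of these reads in the low values was not tested.

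**Figure D3:**
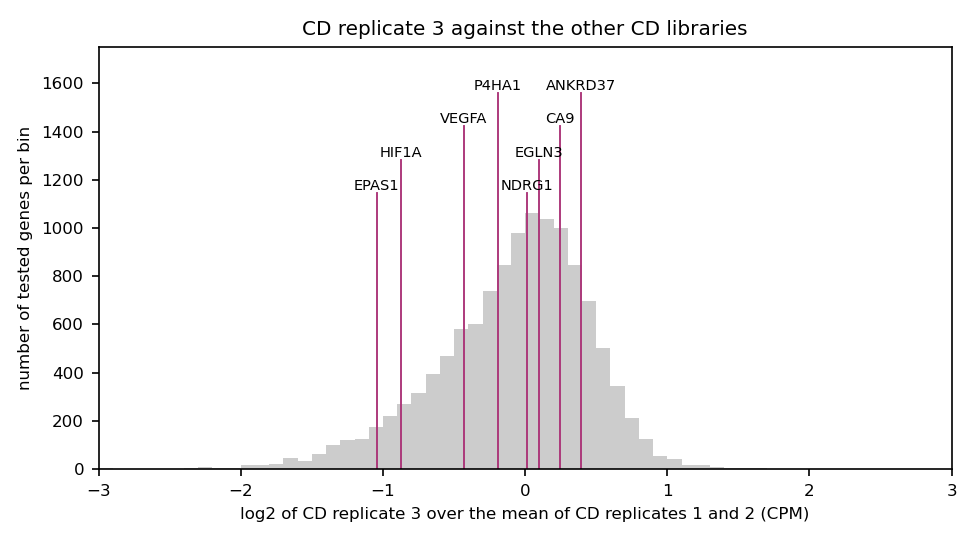
Position of the 8 tested hypoxia genes (vertical lines) in the distribution over all 12148 tested genes (bars, number of genes per bin) of the log2 ratio of CD replicate 3 to the mean of CD replicates 1 and 2, in CPM (horizontal axis). EPAS1 and HIF1A lay at the low end, at -1.04 and -0.87, whereas NDRG1 and EGLN3 lay near 0.

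The other genes of oxygen sensing were followed as a list of 21 genes, of which 18 were found in the table (VHL and ELOC by their description) and 17 were tested. HIF3A had no reads. In CD, 4 were higher and 1 was lower (FDR under 0.05, edgeR), and 12 were not called, so that 5 of 17 were called, beside 47.7% of all tested genes. The median log2FC of the list was 0.20. The largest changes belonged to SIAH2 and SIAH1, ubiquitin ligases that target hydroxylases of the EGLN family for degradation. SIAH2 rose from 42.0 ± 3.45 CPM to 118 ± 5.81 CPM (SD, n = 3), and its log2FC was 1.49 ± 0.12 (SE; FDR 7.16e-06, edgeR). SIAH1, at a low level of 2.97 ± 0.496 CPM in the control, also rose, and its log2FC was 1.14 ± 0.21 (SE; FDR 0.00133, edgeR). Both were called in all 14 alternative settings.

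The remaining called genes of this list changed less. RBX1, the RING subunit of the VHL ubiquitin ligase, had a log2FC of 0.52 (FDR 0.0152, edgeR) and was not called without control replicate 1 or 3. CITED2, which competes with the HIFs for coactivators, had one of 0.34 (FDR 0.0439, edgeR) and was not called in 8 of 14 alternative settings, among them the omission of control replicate 1, 2 or 3 or CD replicate 2. USP20, a deubiquitinase that stabilizes the HIF-1 alpha subunit, was lower, with a log2FC of -0.43 (FDR 0.0214, edgeR), and was not called without control replicate 1 or 3. VHL itself was at 9.02 ± 1.36 CPM in untreated cells and 10.3 ± 1.52 CPM after CD (SD, n = 3), and HIF1AN, the asparagine hydroxylase that blocks HIF coactivators, was at 72.1 ± 7.66 and 61.3 ± 9.16 CPM. Neither was called (FDR 0.434 and 0.208, edgeR). ARNT, the common HIF partner, had a log2FC of 0.29 and was not called (FDR 0.252, edgeR).

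**Figure D4:**
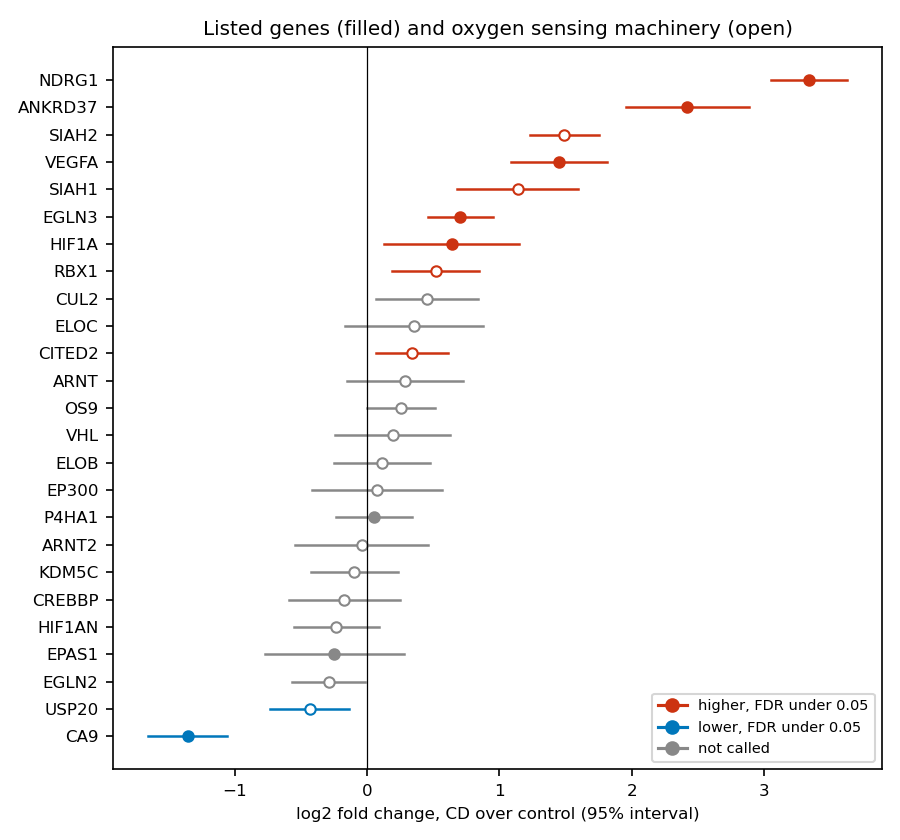
Log2 fold change of CD over control (horizontal axis, point) with its 95% interval (line) in edgeR for the 8 tested hypoxia genes (filled points) and 17 genes of oxygen sensing (open points), colored by the call at an FDR under 0.05. NDRG1 at 3.34 and CA9 at -1.35 were the extremes, and most genes of oxygen sensing lay near 0.

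A further 52 target genes of the HIFs were listed from general knowledge, of which 45 were found and 39 tested. In CD, 14 were higher, 6 were lower and 19 were not called (FDR under 0.05, edgeR). These were 20 called genes of 39, beside 47.7% of all tested genes. With single libraries left out, 8 to 17 were higher, beside 2216 to 3616 of all tested genes. The median log2FC of the list was 0.23. Among the highest log2FCs were those of MXI1 (3.55), an antagonist of MYC, PFKFB3 (1.69) and PFKFB4 (0.83), which control glycolysis through a fructose bisphosphate, and BHLHE40 (0.92), a transcriptional repressor of the circadian clock. MXI1 had 109 reads in untreated cells, against 1281 after CD, and rose from 2.31 ± 0.702 CPM to 27.5 ± 2.15 CPM (SD, n = 3; FDR 2.00e-06, edgeR).

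The lowest log2FCs of this list belonged to ANGPTL4 (-5.07), an inhibitor of lipoprotein lipase, STC2 (-3.37), a secreted glycoprotein, LOX (-2.23), which crosslinks collagen, TMEM45A (-1.15), and TFRC (-0.85), the transferrin receptor. LOX fell from 73.8 ± 6.24 CPM to 15.7 ± 3.77 CPM (SD, n = 3; FDR 8.23e-06, edgeR). ANGPTL4 fell from 225 ± 12.2 CPM to 6.70 ± 0.565 CPM (FDR 3.39e-08, edgeR). STC2 had 260 reads in untreated cells, against 25 after CD. These genes were called in all 14 alternative settings except TFRC (FDR 0.0338, edgeR), which was not called in 6 of them, among them the omission of control replicate 1, 2 or 3 or CD replicate 2, and which had a log2FC of -0.61 to -1.28 over the omissions.

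**Figure D5:**
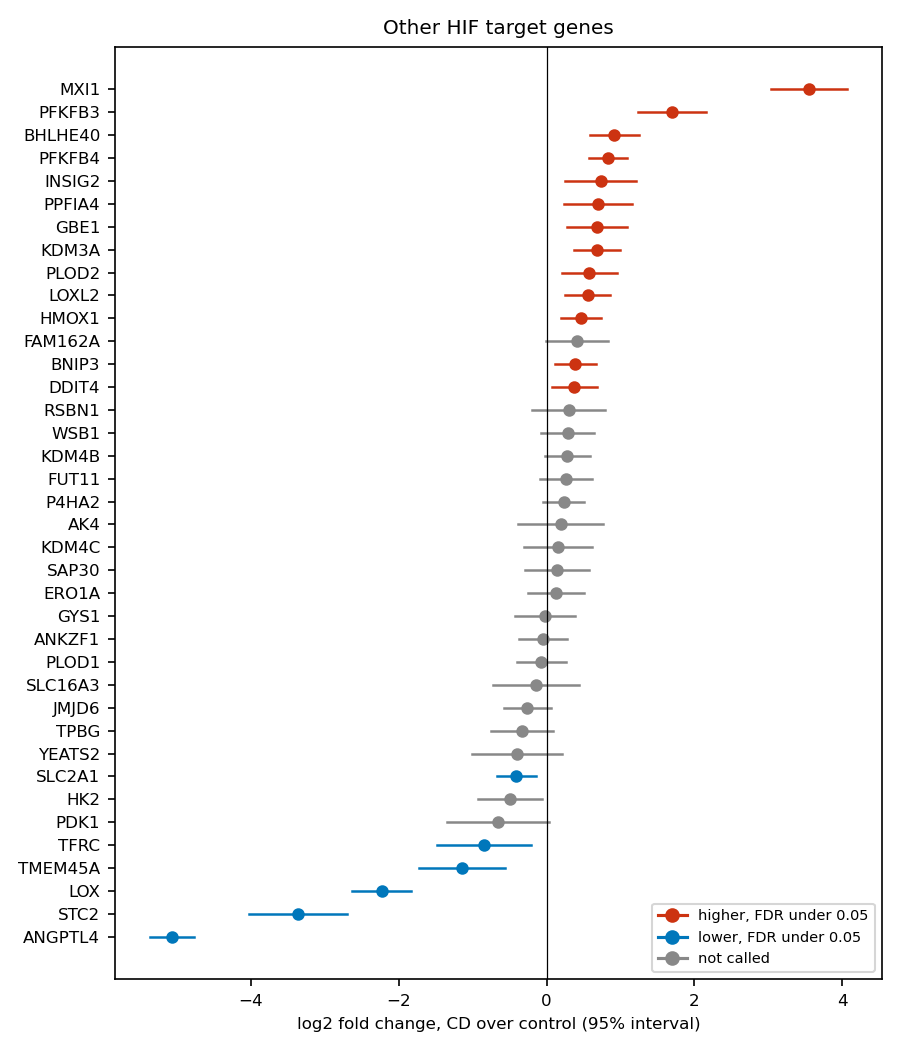
Log2 fold change of CD over control (horizontal axis, point) with its 95% interval (line) in edgeR for tested genes among the other HIF targets, colored by the call at an FDR under 0.05. The genes shown ran from ANGPTL4 at -5.07 to MXI1 at 3.55, and calls were made in both directions.

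Genes of glycolysis, many of which are HIF targets, were listed next. Of 15 listed genes 12 were tested, and 4 were higher, 4 were lower and 4 were not called (FDR under 0.05, edgeR), beside 24.8% higher and 22.9% lower over all tested genes, with a median log2FC of 0.14. With control replicate 1, 2 or 3 left out, 3 were higher and 2 were lower, while fewer of all tested genes were called as well. The highest and the lowest are isoforms of the same enzyme, phosphofructokinase. PFKP, the platelet isoform, rose from 877 ± 54.5 CPM to 1777 ± 134 CPM (SD, n = 3; FDR 1.03e-04, edgeR), while PFKM, the muscle isoform, fell from 185 ± 13.9 CPM to 106 ± 6.87 CPM (FDR 2.70e-04, edgeR).

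Receptors and relatives of the VEGF and adrenomedullin ligands were listed as well. Of 9 genes of the VEGF family and its receptors 6 were tested, and 1 was higher, 1 was lower and 4 were not called, beside 47.7% called over all tested genes, with a median log2FC of 0.013. FLT4, the receptor of the lymphatic ligands of the family, rose from 2.32 ± 0.139 CPM to 26.7 ± 9.03 CPM (SD, n = 3), with a log2FC of 3.52 (FDR 9.00e-06, edgeR). NRP1, a coreceptor of VEGFA, fell from 84.3 ± 5.80 CPM to 37.6 ± 12.0 CPM, with a log2FC of -1.16 (FDR 0.00122, edgeR). KDR, the main signaling receptor of VEGFA, had at most 0.0723 CPM in any library and was not tested. FLT1, a further receptor of this list, was at 27.0 ± 1.36 CPM in untreated cells and 31.2 ± 9.11 CPM after CD. It was not called (FDR 0.426, edgeR). Of 6 genes around adrenomedullin 3 were tested, and 2 were higher and 1 was lower, beside the same 47.7%, with a median log2FC of 0.34. CALCRL, the receptor, had 33 reads in untreated cells, against 126 after CD (log2FC 1.88, FDR 0.00159, edgeR), and RAMP3, which gives the receptor its affinity for adrenomedullin, had 852 and 113 reads (log2FC -2.92, FDR 6.39e-06, edgeR). The other higher gene, ACKR3, had an FDR of 0.0485 and was not called in 9 of 14 alternative settings, among them the omission of control replicate 1 or 2 or CD replicate 1 or 2.

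Relatives of NDRG1, P4HA1, CA9 and ANKRD37 were taken as a list of 11 genes, of which 7 were tested, with 5 higher and 1 lower (FDR under 0.05, edgeR), beside 24.8% and 22.9% of all tested genes, and a median log2FC of 0.60. Within the NDRG family the other tested genes were also higher. NDRG4 rose from 2.79 ± 0.597 CPM to 45.6 ± 9.45 CPM (SD, n = 3), with a log2FC of 4.02 (FDR 9.02e-07, edgeR), and NDRG2 from 153 ± 10.3 CPM to 232 ± 18.1 CPM, with one of 0.60 (FDR 0.00156, edgeR). P4HB, the protein disulfide isomerase that forms the collagen prolyl hydroxylase together with P4HA1, fell from 2784 ± 296 CPM to 1372 ± 136 CPM, with a log2FC of -1.02 (FDR 2.29e-04, edgeR), whereas P4HA1 was at 43.1 ± 0.424 and 44.6 ± 5.56 CPM. Reads that mapped to several places were counted apart from the genes (4.81% to 5.71% of all reads) and so were not split between relatives. Counts of relatives with similar sequence may lack such reads.

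As a check of the treatment, 5 of 6 genes of sterol metabolism were higher in CD, beside 24.8% of all tested genes, with HMGCS1 at 130 ± 15.6 CPM in untreated cells and 1404 ± 239 CPM after CD (SD, n = 3). The epithelial markers KRT7 and KRT19 were high but lower in CD (log2FC -2.50 and -1.03), CLDN4 was higher (3.55), EPCAM and CDH1 had at most 0.287 and 0.432 CPM in any library, and the summed level of the 9 epithelial markers found was 7734 to 8385 CPM in control and 1493 to 1958 CPM in CD libraries. The summed levels in control and CD were 67.4 to 86.3 and 91.1 to 137 CPM for 9 markers of lung epithelium (SFTPC, SFTPB and AQP5 were at 0), 4385 to 4669 and 4140 to 5147 for 10 of fibroblasts, 209 to 224 and 76.4 to 126 for 6 of endothelium, and 5.20 to 5.84 and 17.6 to 23.3 for 6 of leukocytes. The sum for lung epithelium was mostly ABCA3, which was called higher (log2FC 0.70), while SCGB1A1 was called lower (-1.21) and AGER was not called (-0.28). The sum for leukocytes was mostly CD68, which was called higher (1.85), as was CD14 (2.37). The sum for fibroblasts was mostly VIM (log2FC 0.029, 4070 ± 119 CPM in untreated cells and 4152 ± 569 CPM after CD, SD, n = 3), while COL1A1 (-0.93), COL1A2 (-0.37, in 8 of 14 alternative settings), COL3A1 (-1.72) and PDGFRB (-1.08) were called lower and CDH2 (0.74) was called higher. The sum for endothelium was mostly TEK, which was called lower (-1.08), as was TIE1 (-1.15, in 8 of 14 alternative settings), while VWF, with 5 reads over the untreated libraries and 56 over the CD libraries, was called higher (3.38). Of the tested markers, 3 of 5 epithelial, 2 of 3 lung, 5 of 7 fibroblast, 3 of 3 endothelial and 2 of 2 leukocyte genes were called in either direction, beside 47.7% of all tested genes. PECAM1 and CDH5, which define endothelium, had at most 0.307 and 0.0720 CPM, and PTPRC, which defines leukocytes, had at most 0.0720 CPM. The part of changed cell state or composition in the values of the hypoxia genes was not tested.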

How the data were processed

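RNA-seq of Mv1Lu cells comprised 3 control and 3 CD libraries, with groups and replicate numbers taken from the sample titles. Per the paper's methods and the submitters' processing notes, reads were trimmed with fastp 0.20.1, aligned with STAR 2.7.2a to the mink assembly NNQGG.v01, and normalized and compared with DESeq2 1.30.1 in R 4.0.3. The read counter was not given in the sources used here. The authors deposited raw counts per gene, used here without the 4 summary rows without a gene (29.3% to 47.2% of reads), and normalized values, not used here because by identifier they did not follow the counts (Spearman correlations within ± 0.00674).

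Counts were filtered with filterByExpr (minimum count 10, minimum total 15), scaled by TMM and tested with edgeR 4.0.16 in R 4.3.3 (glmQLFit, robust, and glmQLFTest, condition as the only term), with Benjamini-Hochberg adjustment over all tested genes. The standard error is the size of the log2 fold change divided by the square root of F. The code was tested on simulated data. The planned ratio with EGLN1 could not be formed, and EGLN2 took its place. Ratios of reads used a prior count of 0.5 and exact permutation tests (scipy 1.17.1). The 14 alternatives for single genes were DESeq2 1.42.0, limma-voom (limma 3.58.1), 3 other scalings, 2 other filters, the replicate number as a block, and each of the 6 libraries left out. For numbers of called genes an FDR of 0.01 was added.

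The members and the 12 lists beside them were chosen with earlier results of these data known. Named were all members, genes of the oxygen sensing list, the 5 highest and 5 lowest called genes of the other HIF targets, the highest and lowest called gene of other lists, and HMGCS1. Some genes that this rule names are not reported here. NDRG2, ACKR3, KDR, FLT1, UFSP2, KRT19, VIM, COL1A1, COL1A2, PDGFRB, TEK, AGER and the markers near 0 were named after their values were seen. VHL, ELOC, INSIG2, GBE1 and SQLE were matched by their description.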

Additional observations from a re-analysis of the deposited data

How the results depend on the processing

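The calls of NDRG1, ANKRD37, VEGFA, EGLN3 and CA9 and the absence of a call for EPAS1 and P4HA1 were the same in all 14 alternatives. HIF1A was not called with limma-voom (log2 fold change 0.58, FDR 0.0686), with total counts as the scaling (0.67, FDR 0.0676), or without the filter on low counts (0.64, FDR 0.0837), and with each library left out its log2 fold change lay between 0.35 and 0.84. The log2 fold change of P4HA1 lay between -0.044 and 0.076 over these omissions and was below 0 without CD replicate 1. The cause was not tested.

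An FDR of 0.01 left 2006 higher and 2036 lower genes of all tested genes, and 4 higher and 1 lower of the members. With each library left out, 2216 to 3616 of all tested genes were higher and 2194 to 3606 lower, with the fewest without control replicate 3 and the most without CD replicate 3. Under the same omissions, the numbers of higher genes were 2 to 6 for oxygen sensing, 8 to 17 for other HIF targets, 2 to 4 for glycolysis, 1 to 2 for the VEGF list and 1 to 2 for the adrenomedullin list. The numbers of lower genes were 0 to 2, 4 to 8, 2 to 4, 1 to 2 and 1 for the same lists. The adrenomedullin list had 1 higher gene with DESeq2, limma-voom, DESeq2 size factors, no filter, a minimum of 50 counts or the block, and 2 lower genes with no filter. Oxygen sensing had 2 lower genes with total counts. All scalings kept the median log2 fold change of all genes between 0.037 and 0.090.

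Libraries with the same replicate number did not deviate together (correlations of -0.024, -0.33 and -0.18 for numbers 1, 2 and 3). With 3 libraries per group, taken relative to their group mean, such correlations cannot show whether the number pairs the libraries. With the replicate number as a block, 2772 genes were higher and 2636 lower, glycolysis had 2 lower genes, and oxygen sensing had 0 lower genes (edgeR, with 1 at an unadjusted p under 0.05 and 1 called by DESeq2 and by limma-voom without the block). HIF1A was called with the block (log2 fold change 0.57, FDR 0.00753). Genes with few reads in a group, such as ANKRD37, SIAH1, CALCRL, STC2, TMEM45A, FLT4 and MXI1, are measured less precisely by count.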
